A study of Mus musculus with 76 samples.

Results

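The nuclear-encoded subunits of the mitochondrial respiratory chain were followed in the embryonic mouse diencephalon at 2 stages and in 2 genotypes. The set held the protein-coding genes whose symbols begin with Nduf followed by a, b, c, s or v and a number, the Sdh a to d genes, and those beginning with Uqcr, Cox4 to Cox8 or Atp5. The rule used names only and no measured value. It selected 89 of 56923 genes in the count files, of which 21631 are protein coding. Complex I held 37 of them, complex II 4, complex III 8, complex IV 21 and ATP synthase (complex V) 19. Ndufa4 and Ndufa4l2, named after complex I, were counted with complex IV, where their proteins are known to belong, as was Cox7a2l by its symbol, and the ATP synthase inhibitor Atp5if1 was counted with complex V.

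RNA was sequenced from 16 samples, 4 in each of 4 groups. The groups were wild type and homozygous hs754-humanized embryos at E11.5 and E17.5, the humanized mice being C57BL/6J animals in which a mouse locus was exchanged for its human counterpart by CRISPR/Cas9. Each E11.5 sample pooled diencephalon from 6 embryos of a litter and each E17.5 sample from 3, so the spread between replicates is a spread between litters. The replaced interval is noncoding and gives no gene count against which the genotype labels could be checked. Wild type chromatin was available as peak lists for H3K4me3, H3K27ac and H3K27me3 at both stages and for CTCF at E17.5, with 2 or 3 replicates.

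Electrons enter the respiratory chain at complex I (NADH dehydrogenase) or complex II (succinate dehydrogenase), pass through complex III (the cytochrome bc1 complex) to complex IV (cytochrome c oxidase), and the resulting proton gradient drives ATP synthase. Most subunits are encoded in the nucleus and imported, whereas a core set in complexes I, III, IV and V is encoded by mitochondrial DNA. Several subunits of complex IV and the membrane ring subunit c of ATP synthase exist as paralogs with different tissue distributions. Neural progenitors are known for high glycolytic activity, and neurons for dependence on oxidative phosphorylation.

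The libraries held 16414369 to 24272569 counts on genes. Between 48.1% and 58.4% of the reads were assigned to no gene, most of them unmapped reads, which were 36.3% to 44.9% of all reads. Tcf7l2, a thalamic transcription factor gene, stood at 686 to 1359 CPM (counts scaled to library size with edgeR's TMM factors) in all 16 libraries. Replicate 1 of the E17.5 wild type group stood apart from the other 3 replicates of its group. It had 2628 CPM of the neuronal tubulin gene Tubb3 where the others had 764 to 873. The 12 neuron markers that include Tubb3 summed to 8286 CPM in it, within the 7831 to 8596 CPM of the others. It had 1352 CPM of the noncoding RNA gene Meg3 where the others had 4779 to 5757, and 1283 CPM of Gapdh where they had 456 to 565. Endothelial markers summed to 469 CPM (the others 252 to 309), microglia markers to 81.1 (36.3 to 39.2) and erythroid markers to 1020 (241 to 457). Astrocyte markers were lower in it, at 621 CPM against 763 to 885. Across 18687 genes, the deviation of that library from the mean of all libraries had a Spearman correlation with gene GC content of 0.503, against -0.361 to -0.307 in the other 3 replicates. The median deviation of the respiratory chain genes in it was 0.37 on the log2 scale, and -0.43 to 0.13 in the other 3. Results that use this group are therefore given with and without that library.

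Of the 89 genes, 3 had no count in any library. These were Ndufb11b, the muscle isoform gene Cox8b, and the second of 2 annotated Atp5po genes. Cox6a2, Cox7b2 and Cox8c, isoform genes known from muscle or testis, reached at most 9, 6 and 1 counts. Thus 83 genes were expressed highly enough for the tests between stages. Their median exonic length was 2172 bp, against 4030 bp for all genes tested, with a median GC content of 49.4% against 49.1%. For 24 of the 89, a further copy of at least 150 bp at 97% identity or more was found elsewhere in the genome, and for 11 of them, among which were Atp5mc1, Atp5mc2, Cox7c, Ndufs5 and Uqcrb, the copy covered at least 50% of the transcript. Reads that matched such a copy equally well were not counted, so the levels of these genes are uncertain.

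Levels were compared between genes as TPM, which divide counts by exonic length and by library size. The length joined the exons of all annotated basic transcripts of a gene, so ranks and paralog shares depend on it. At E11.5 in wild type, Atp5f1b, the catalytic beta subunit of ATP synthase, was the highest member at 1394 ± 130 TPM (SD, n = 4), and Atp5f1a, the alpha subunit, followed at 788 ± 62.1. In complex IV, Cox6a1 was highest at 534 ± 55.1 TPM. In complex III, Uqcrh (hinge protein) was highest at 341 ± 29.9 TPM, and its SD range overlapped that of Uqcrb at 287 ± 30.1. Ndufc2 led complex I at 299 ± 32.9 TPM. In complex II the membrane anchor Sdhd led at 214 ± 25.8 TPM and the iron-sulfur subunit Sdhb was lowest at 84.0 ± 6.20.

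Among members with at least 10 counts in some library of the group, the lowest expressed at E11.5 were Cox4i2 at 2.10 ± 0.894 TPM in complex IV, Ndufb2 at 8.59 ± 1.57 in complex I, Uqcr11 at 22.4 ± 3.52 in complex III and Atp5po at 22.9 ± 1.79 in complex V, the last on strand-blind counts that the sense-strand counts exceeded 1.56 times. At E17.5 the same genes stood at the top of complexes I, II, IV and V in wild type. In complex III, Uqcrb was then first at 369 ± 151 TPM, with Uqcrh at 249 ± 58.7, a gap smaller than the spread of Uqcrb. At the bottom, Ndufb9 at 17.4 ± 4.06 TPM replaced Ndufb2 as the lowest member of complex I, and Cox4i2, Sdhb, Uqcr11 and Atp5po were again lowest in their complexes. Atp5f1b at E17.5 was 1139 ± 382 TPM, the large SD coming from 1418 CPM in replicate 1 against 606 to 686 CPM in the other 3.

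Summed over all complexes, the nuclear subunits were lower at E17.5 in humanized embryos, and overlapped between stages in wild type. The sum of all 89 genes in wild type was 7661, 8847, 6924 and 7500 CPM at E11.5, and 9566, 5302, 7265 and 6799 CPM at E17.5. In humanized embryos it was 9386, 8893, 8896 and 7638 CPM at E11.5 and 5733, 4977, 6923 and 6066 CPM at E17.5, every E17.5 value lying below every E11.5 value. The sum of the 4 complex II genes was 501, 577, 469 and 495 CPM in E11.5 wild type and 608, 346, 378 and 367 CPM in E17.5 wild type, all but replicate 1 lying below every E11.5 value. In these bulk samples, fewer cells of a type and less RNA per cell cannot be told apart.

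**Figure D1:**
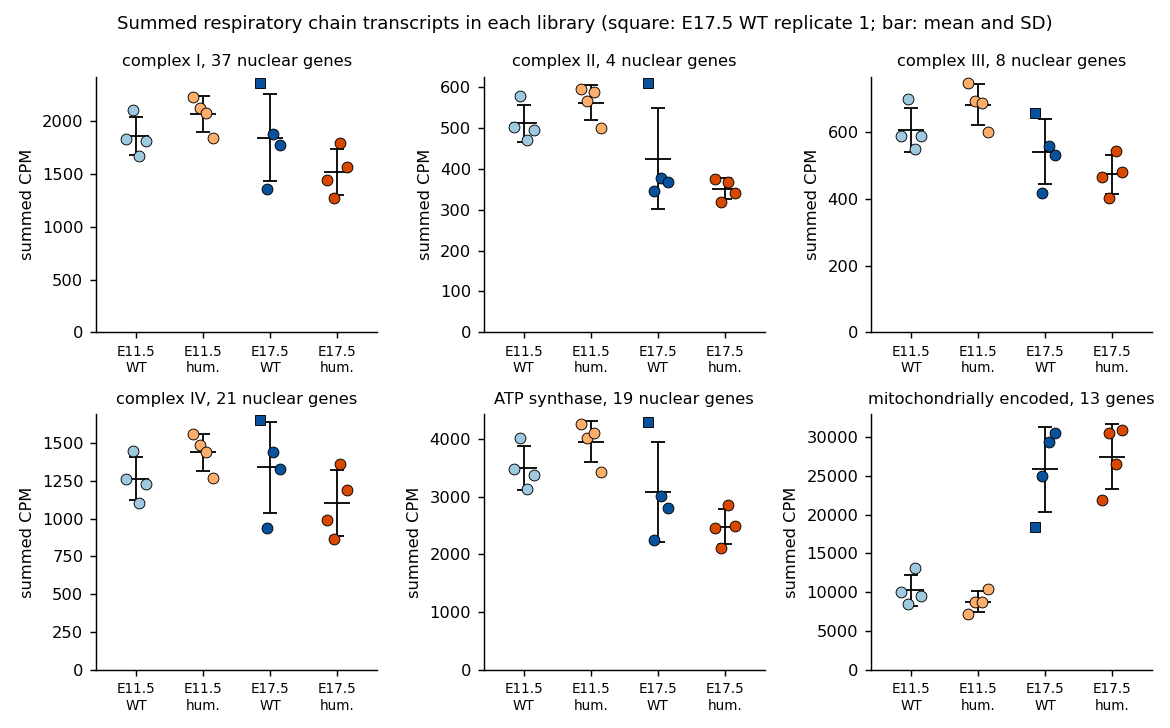
Summed CPM of the nuclear genes of each complex and of the 13 mitochondrially encoded subunits, by library, with the mean and SD of each group of 4 (WT, wild type; hum., humanized). Replicate 1 of E17.5 wild type, drawn as a square, is the highest E17.5 value for every nuclear group and the lowest for the mitochondrially encoded group.

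To ask how the respiratory chain genes differ between the stages, E17.5 was compared with E11.5 in wild type by edgeR's quasi-likelihood test over 18583 genes, with Benjamini-Hochberg adjustment and a threshold of 0.05. Only 7 of the 83 members tested passed. Ndufb2, Ndufa8 and Ndufa4l2 were higher at E17.5 (3 of 83), where 29.0% of all genes tested were higher. Ndufa2, Uqcrh, Cox6b2 and Atp5mc2 were lower (4 of 83), where 26.7% of all genes were lower. The median log2 fold change of the members was -0.07, beside -0.01 over all genes, and its sign turned with offsets for GC content (0.01) or gene length (0.08). Without the replicate 1 that stood apart, 7 members were higher and 24 lower, beside 36.0% and 36.3% of all 19351 genes then tested, and the median was -0.20. With an offset for GC content, 14 members were higher and 10 lower, and with one for gene length 17 and 3.

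Among these, 4 kept their call and direction under all 18 settings tried in wild type: Ndufb2 and Ndufa4l2 higher, Cox6b2 and Atp5mc2 lower. The plot of the called members gives each library.

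**Figure D2:**
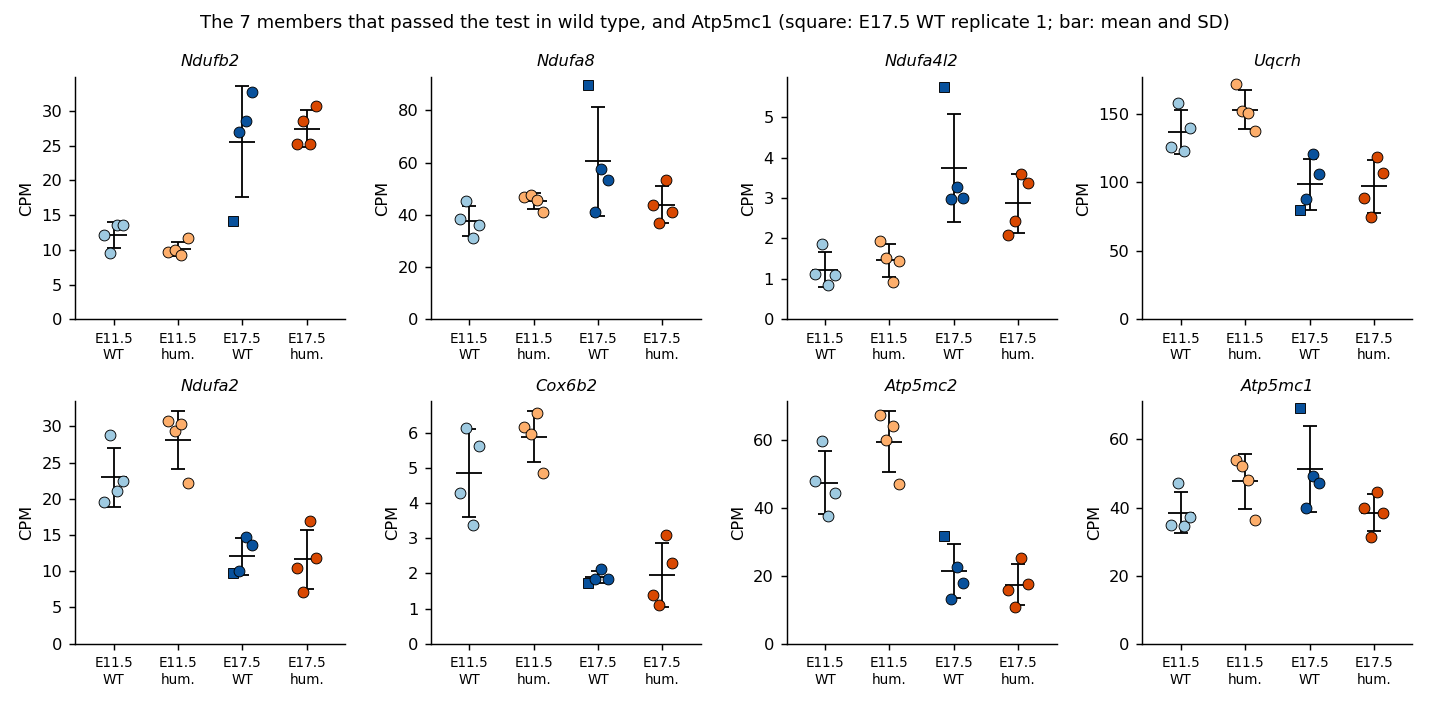
CPM of the 7 members that passed the test between stages in wild type, and of Atp5mc1, in each of the 16 libraries, with mean and SD of 4 (WT, wild type; hum., humanized). In wild type the stages overlap for Ndufa8, which ranges from 31.3 to 45.2 CPM at E11.5 and from 40.9 to 89.8 CPM at E17.5. The 7 passed a test on these same libraries, so separation of the stages among them is no further evidence.

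In complex I, 2 of 36 members tested were higher and 1 lower in wild type. Ndufb2, an accessory subunit of the membrane arm (chr6:39569490-39595671, plus strand), was at 12.1, 9.59, 13.6 and 13.5 CPM at E11.5 and 14.1, 26.98, 28.5 and 32.8 CPM at E17.5. The 2 stages did not overlap, although replicate 1 at E17.5 lay just above the E11.5 values. Its log2 fold change was 1.06 ± 0.27 (SE; edgeR adjusted p = 0.00623), and 1.25 ± 0.15 without that replicate. Ndufa8, an accessory subunit on the intermembrane space side, rose by 0.67 ± 0.24 (adjusted p = 0.0365), and the stages overlapped, with 38.5, 45.2, 31.3 and 36.1 CPM at E11.5 and 89.8, 40.9, 57.6 and 53.6 CPM at E17.5. Leaving out any 1 of 5 libraries raised the adjusted p of Ndufa8 to between 0.05 and 0.109, and its call was also lost with library totals only (edgeR adjusted p = 0.0641), a replicate block (0.074) and length offsets (0.133).

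Ndufa2, an accessory subunit of the matrix arm, was lower at E17.5 without overlap. Its values were 19.6, 28.8, 21.01 and 22.5 CPM at E11.5 and 9.71, 10.1, 14.7 and 13.7 CPM at E17.5, a log2 fold change of -0.94 ± 0.21 (edgeR adjusted p = 0.00314). With length offsets it was -0.34 and did not pass (adjusted p = 0.151). Without replicate 1 of E17.5 wild type, 4 members of complex I were higher and 9 lower. The added higher ones were Ndufa5 (0.80 ± 0.19) and Ndufa1 (0.51 ± 0.20), both small accessory subunits. Among the added lower ones was Ndufb7, at -0.74 ± 0.18.

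None of the 4 succinate dehydrogenase genes passed the test in wild type with all libraries, and all 4 were lower without replicate 1. Sdha, the flavoprotein subunit, was at 211, 235, 209 and 215 CPM at E11.5 and 190, 167, 154 and 162 CPM at E17.5, with no overlap and a log2 fold change of -0.38 ± 0.15 (edgeR adjusted p = 0.0507). Sdhb was at 102, 112, 87.5 and 96.0 CPM at E11.5 and 185, 67.2, 80.6 and 70.3 CPM at E17.5. For this gene replicate 1 lay above every E11.5 value and the other 3 below every one. The log2 fold change of Sdhb was accordingly 0.01 ± 0.31 with all libraries and -0.47 ± 0.13 without replicate 1 (adjusted p = 0.00499). Of the membrane subunits, Sdhc moved from -0.28 ± 0.26 with all libraries to -0.65 ± 0.13 without replicate 1, which stood at 154.6 CPM against 65.9 to 79.1 in the others. Sdhd moved less, from -0.38 ± 0.20 to -0.53 ± 0.15.

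In complex III, 1 of 8 members passed in wild type. Uqcrh was at 126, 158, 123 and 140 CPM at E11.5 and 79.6, 87.6, 121 and 107 CPM at E17.5, with log2 fold change -0.48 ± 0.18 (edgeR adjusted p = 0.0439). No E17.5 value reached the lowest E11.5 value of 123 CPM. Leaving out any 1 of 6 of the 8 libraries took the adjusted p of Uqcrh to between 0.0549 and 0.141. It also lost its call with DESeq2's size factors in edgeR (adjusted p = 0.0683), no filter (0.08), a replicate block (0.0895) and length offsets (-0.26, 0.25). Without replicate 1 of E17.5 wild type, the core subunit gene Uqcrc1 was lower at -0.68 ± 0.14 and Uqcrb higher at 0.53 ± 0.15. The Rieske iron-sulfur protein gene Uqcrfs1 was at -0.16 ± 0.20 with all libraries and -0.31 ± 0.14 without that one, and passed in neither.

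In complex IV, Cox6b2 was lower and Ndufa4l2 higher among 17 members tested, both being the minor paralog of their family. The genes of the ubiquitous subunits did not pass. In wild type the log2 fold changes of Cox4i1, Cox5a, Cox5b, Cox6a1, Cox6c, Cox7b, Cox7c and Cox8a ranged from -0.07 to 0.17. Cox6b1 and Cox7a2l lay outside this range, at 0.36 ± 0.23 and -0.26 ± 0.20 on the sense-strand counts. Without replicate 1, the supercomplex factor gene Cox7a2l was also lower, at -0.49 ± 0.14.

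In ATP synthase, Atp5mc2 alone of 18 members passed in wild type, and it fell. Without replicate 1 there were 7 lower genes, among them those of the F1 part of the enzyme, Atp5f1a (-0.67 ± 0.13), Atp5f1b (-0.64 ± 0.13) and Atp5f1d (-0.67 ± 0.17), and of the peripheral stalk, Atp5pd (-0.57 ± 0.15) and Atp5po (-0.43 ± 0.15). Atp5if1, whose product inhibits ATP hydrolysis by the enzyme, was then the 1 higher gene of the complex at 0.41 ± 0.15. The gamma subunit gene Atp5f1c was at 0.09 ± 0.25 with all libraries and -0.24 ± 0.13 without replicate 1, passing in neither.

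**Figure D3:**
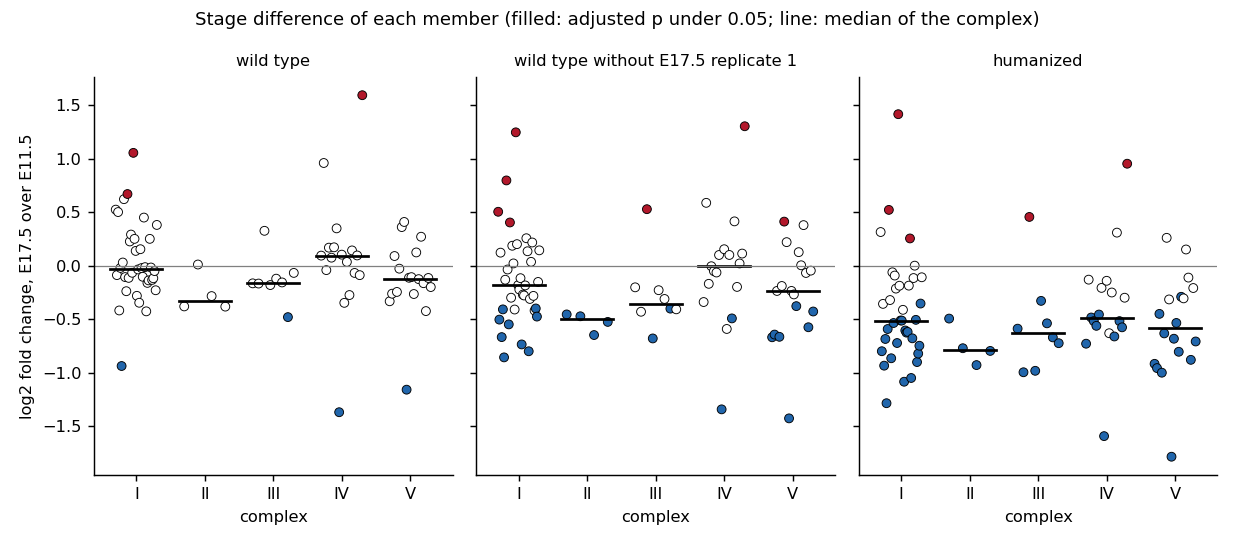
Log2 fold change from E11.5 to E17.5 of each tested member by complex, for wild type, wild type without replicate 1 of E17.5, and humanized samples, with filled points for members at an adjusted p under 0.05 and a line at the median of each complex. The medians of all 83 members are -0.07, -0.20 and -0.54.

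In humanized samples the same comparison was made with other libraries, although same-numbered E17.5 libraries of the 2 genotypes deviated together. There 5 members were higher and 53 lower of 83, beside 38.2% and 39.5% of all 18781 genes tested, with a median log2 fold change of -0.54 beside -0.04 over all genes. Across the 18 settings the lower count stayed between 36, with an offset for gene length, and 62, without replicate 3 of E17.5 humanized. All 4 complex II genes and 7 of 8 complex III genes were lower, as were 21 of 36 in complex I, 9 of 17 in complex IV and 12 of 18 in complex V. By complex the medians were -0.51, -0.78, -0.63, -0.48 and -0.58 from I to V. Each library's deviation from the mean of all 16 libraries contains the stage difference, and other library differences cannot be told apart from it here. The median deviation of the members was 0.04 to 0.36 on the log2 scale in the E11.5 humanized libraries and -0.59 to 0.05 in the E17.5 humanized ones, and the correlation of each library's deviation with gene GC content was 0.115 to 0.409 and -0.466 to -0.219. The part of GC content in the result was measured only through the offset, with which 48 members were lower and 8 higher, with a median of -0.35. The correlation with gene length was -0.266 to -0.195 in the E11.5 humanized libraries and 0.139 to 0.276 in the E17.5 humanized ones. With an offset for gene length, 36 members were lower and 11 higher, and the median of the members was -0.25.

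The 5 higher genes were Ndufb2 (1.42 ± 0.14), Ndufa4l2 (0.95 ± 0.27), Ndufa5 (0.52 ± 0.15), Uqcrb (0.46 ± 0.15) and Ndufs1 (0.26 ± 0.11), the last of which lost its call when any 1 of 6 libraries was left out. Uqcrb and Ndufs1 turned direction with an offset for GC content, to -0.73 (edgeR adjusted p = 0.0015) and -0.27 (adjusted p = 0.0134). Among the lower genes, chosen here after their values were seen, were Atp5mc2 at -1.79 ± 0.21, Cox6b2 at -1.59 ± 0.28, Ndufa2 at -1.29 ± 0.21 and Ndufb7 at -1.08 ± 0.16. Uqcrc1 was at -0.98 ± 0.12, Atp5f1b at -0.96 ± 0.12 and Sdhc at -0.93 ± 0.12. Atp5f1b was at 1288, 1192, 1257 and 990 CPM at E11.5 and 663, 535, 674 and 580 CPM at E17.5, every E17.5 library lying below every E11.5 library. Under every setting, 27 members were lower and 3 (Ndufb2, Ndufa5 and Ndufa4l2) higher.

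Of the 3 members higher in wild type, 2 were also higher in humanized samples, and all 4 lower members were lower in both. Of all genes called in wild type, 93.3% of the higher and 93.1% of the lower ones had the same call in humanized samples. Without replicate 1, 24 of the 24 lower and 4 of the 7 higher members had the same call in humanized samples, beside 91.0% and 90.9% of all genes called lower and higher. Ndufa8 was the higher gene that was not shared, at -0.06 ± 0.12 in humanized samples, but the interaction of genotype and stage did not pass for it (-0.73 ± 0.28, edgeR adjusted p = 0.462).

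To ask whether the humanized locus was accompanied by a difference in these genes, the genotypes were compared within each stage. No member passed at E11.5 or at E17.5, and no gene at all did, 0.00% of 17816 and 0.00% of 18763 genes. At an unadjusted p under 0.05 there were 3 of 83 members at E11.5, beside 5.94% of all genes, and 1 of 82 at E17.5, beside 1.10%. These counts varied with single libraries. At E11.5 there were 36 members (and 3937 of 18268 genes) without wild type replicate 2, 32 (and 3963 of 18086) without humanized replicate 4, and 0 to 2 without any 1 of the other 6. At E17.5 there were 14 (and 750 of 19067) without wild type replicate 2, and 0 or 1 without any 1 of the other 7. No member passed the adjusted threshold in any of these fits. DESeq2 called 2 genes at each stage, neither of them a member. The 3 members with the lowest p at E11.5 were Cox5b at 0.31 ± 0.11, Ndufa13 at 0.27 ± 0.12 and Uqcrq at 0.33 ± 0.15, all with an edgeR adjusted p of 0.577. At E17.5 they were Cox4i2 at -0.98 ± 0.44, Atp5mc1 at -0.42 ± 0.21 and Ndufa8 at -0.47 ± 0.25, all with an adjusted p of 0.808.

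The 95% intervals, from the t distribution with each fit's degrees of freedom, bound the genotype differences. For Cox5b at E11.5 the interval ran from 0.06 to 0.56 on the log2 scale, and for Cox4i2 at E17.5 from -1.95 to -0.0062. For Atp5mc1 at E17.5 it ran from -0.89 to 0.04. Although none passed, 74 of 83 members were above 0 at E11.5, with a median of 0.15, beside 50.4% of all genes and their median of 0.0028. At E17.5, 74 of 82 were below 0, with a median of -0.33, beside 52.5% of all genes and their median of -0.026. With single libraries left out, the medians of the members ran from 0.09 (without wild type replicate 3) to 0.24 (without wild type replicate 2) at E11.5, and from -0.45 (without wild type replicate 2) to -0.14 (without wild type replicate 1) at E17.5. The members were measured in the same libraries, so these signs are not independent of one another.

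The interaction of genotype and stage likewise passed for 0.00% of 20234 genes. At an unadjusted p under 0.05 there were 18 of 83 members, beside 7.96% of all genes. That count was 55 without E17.5 wild type replicate 2, 41 without E17.5 humanized replicate 3 and 32 without E11.5 wild type replicate 2. It was 18 to 22 without any 1 of 3 further libraries and 4 to 11 without any 1 of the other 10, with 4 without E17.5 wild type replicate 1. The lowest p values belonged to Atp5mc1 at -0.72 ± 0.26, Ndufa8 at -0.73 ± 0.28 and Cox5b at -0.68 ± 0.27, with an edgeR adjusted p of 0.462 for each. The median over the members was -0.51, beside -0.036 over all genes, and ran from -0.64 (without E17.5 wild type replicate 2) to -0.31 (without E17.5 wild type replicate 1).

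Within paralog families, the proportions of several members shifted between stages in both genotypes. Shares were computed in each library from TPM and compared between stages by a two-sided exact permutation test of 4 against 4 libraries, whose smallest possible p is 0.0286. There were 7 such tests in each genotype, and the smallest adjusted p they gave was 0.04.

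The membrane ring of ATP synthase is built from subunit c, which 3 genes encode with the same mature protein and different targeting peptides. Atp5mc2 (chr15:102571295-102580787, minus strand) was at 47.8, 59.7, 37.6 and 44.3 CPM in E11.5 wild type and 31.8, 13.2, 22.5 and 17.8 CPM in E17.5 wild type, every E17.5 value lying below every E11.5 value, with log2 fold change -1.16 ± 0.27 (edgeR adjusted p = 0.00393). Its share of the family fell from 11.7 ± 1.14% to 5.82 ± 0.869% (SD, n = 4; exact permutation p = 0.0286, adjusted 0.04). In humanized samples the share went from 12.1 ± 0.597% to 5.81 ± 0.662%, with the same p. The share of Atp5mc1 (chr11:95959678-95966757, minus strand) went the other way, from 4.25 ± 0.0782% to 6.46 ± 0.937% in wild type and from 4.33 ± 0.405% to 5.99 ± 0.682% in humanized samples (exact permutation p = 0.0286 in each). The level of Atp5mc1 itself passed in neither genotype, with log2 fold changes of 0.41 ± 0.21 in wild type (edgeR adjusted p = 0.116) and -0.32 ± 0.14 in humanized samples (adjusted p = 0.0558). Under the 18 settings it stayed above 0 in wild type and below 0 in humanized samples, passing in 1 of them in wild type and in 5 in humanized samples. In humanized samples Atp5mc3 was lower, at -0.68 ± 0.16, so that the share of Atp5mc1 was larger there without a higher level. Atp5mc3 made up the rest at 485 ± 58.1 TPM in E11.5 wild type and 447 ± 91.0 in E17.5 wild type. The sequences upstream of both shifting genes are shown because they are the paralogs whose proportions changed in opposite directions. They are from RefSeq's promoter table for GRCm38.p6, were located in GRCm39 by exact match, and leave out bases in exons. Capitals would mark the motif letters described with the promoters, and neither sequence holds any.
Atp5mc1, chr11:95966462-95966707, minus strand: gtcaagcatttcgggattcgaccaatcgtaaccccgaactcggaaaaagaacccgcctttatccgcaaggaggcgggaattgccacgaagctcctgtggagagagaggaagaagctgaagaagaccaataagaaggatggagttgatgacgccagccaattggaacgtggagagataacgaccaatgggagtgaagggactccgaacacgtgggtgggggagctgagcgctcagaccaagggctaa
Atp5mc2, chr15:102579563-102579732, minus strand: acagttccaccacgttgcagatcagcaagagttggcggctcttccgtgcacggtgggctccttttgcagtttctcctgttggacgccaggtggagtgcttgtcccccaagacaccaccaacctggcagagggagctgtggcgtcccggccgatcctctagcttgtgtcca

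Cox6b2, known as a testis isoform of the subunit that bridges the cytochrome c oxidase dimer (chr7:4754789-4756093, minus strand), was a minor transcript that became rarer. It was at 4.30, 6.15, 3.38 and 5.63 CPM in E11.5 wild type and 1.72, 1.85, 2.14 and 1.85 CPM in E17.5 wild type, without overlap (log2 fold change -1.37 ± 0.25, edgeR adjusted p = 0.000816). Relative to Cox6b1 its share fell from 7.26 ± 1.26% to 2.55 ± 0.852% in wild type and from 8.02 ± 0.669% to 3.10 ± 0.897% in humanized samples (exact permutation p = 0.0286 in each). Cox6b1 itself was at 0.35 ± 0.24 in wild type and -0.21 ± 0.13 in humanized samples on the log2 scale, and passed in neither.

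Ndufa4l2, a paralog of Ndufa4 known to be induced by low oxygen and to be expressed in pericytes (chr10:127350818-127353038, plus strand), rose. It was at 1.13, 1.85, 0.859 and 1.09 CPM in E11.5 wild type and 5.74, 2.99, 3.28 and 2.99 CPM in E17.5 wild type, with no overlap and the highest value in replicate 1 (log2 fold change 1.59 ± 0.33, edgeR adjusted p = 0.00201). Without replicate 1 it was 1.30 ± 0.28. In humanized samples it was at 1.94, 1.52, 0.930 and 1.43 CPM at E11.5 and 2.08, 2.42, 3.59 and 3.37 CPM at E17.5. Its share of the pair with Ndufa4 went from 7.71 ± 1.87% to 23.8 ± 14.2% in wild type, where replicate 1 had 44.4% and the others 14.1% to 21.6%, and from 7.92 ± 1.88% to 17.2 ± 1.63% in humanized samples (exact permutation p = 0.0286 in each). The size of these shares rests on division by exonic length, 7895 bp for Ndufa4 and 967 bp for Ndufa4l2. Counts per library were 1126 to 3530 for Ndufa4 and 17 to 110 for Ndufa4l2.

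Genes of mural cells, the pericytes and smooth muscle cells of vessels, were read beside Ndufa4l2. Of 9 markers, 4 were higher and 2 lower at E17.5 in wild type, and 3 higher and 5 lower in humanized samples. Over all genes tested, 29.0% were higher and 26.7% lower in wild type, and 38.2% and 39.5% in humanized samples. The 2 with the largest changes were the pericyte genes Higd1b (6.40 ± 0.59 in wild type, 4.09 ± 0.45 in humanized) and Rgs5 (3.84 ± 0.39 and 4.88 ± 0.39). All 9 markers together summed to 320 to 442 CPM in the E11.5 libraries and 330 to 383 CPM in the E17.5 libraries, with no marker at 0 in any group. The part of mural cells in the rise of Ndufa4l2 was not tested.

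Changes in the other families were smaller. Cox4i2, an isoform gene known from lung and hypoxia, held 0.610 ± 0.266% of the Cox4i pair at E11.5 and 1.12 ± 0.141% at E17.5 in wild type (exact permutation p = 0.0286, and 0.0571 on the stranded counts), and 0.562 ± 0.0899% and 0.826 ± 0.258% in humanized samples (exact permutation p = 0.114). It rested on 7 to 47 counts per library. Cox7a2 rose from 41.2 ± 0.677% to 47.9 ± 3.96% of the Cox7a family in humanized samples (exact permutation p = 0.0286), whereas in wild type it was 40.3 ± 1.04% and 45.9 ± 9.34% (exact permutation p = 0.314). Cox7a1, the muscle and heart isoform gene, held 3.09 ± 0.673% and 2.74 ± 1.06% in wild type (exact permutation p = 0.686), from 6 to 20 counts per library. Cox6a2, Cox7b2, Cox8b and Cox8c had too few counts for a test. Of 10 striated muscle markers, 1 was higher and 3 lower in wild type, beside 29.0% and 26.7% of all genes tested. The list summed to 3.70 to 10.3 CPM in all libraries, with the creatine kinase gene Ckm at no more than 0.127 CPM.

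**Figure D4:**
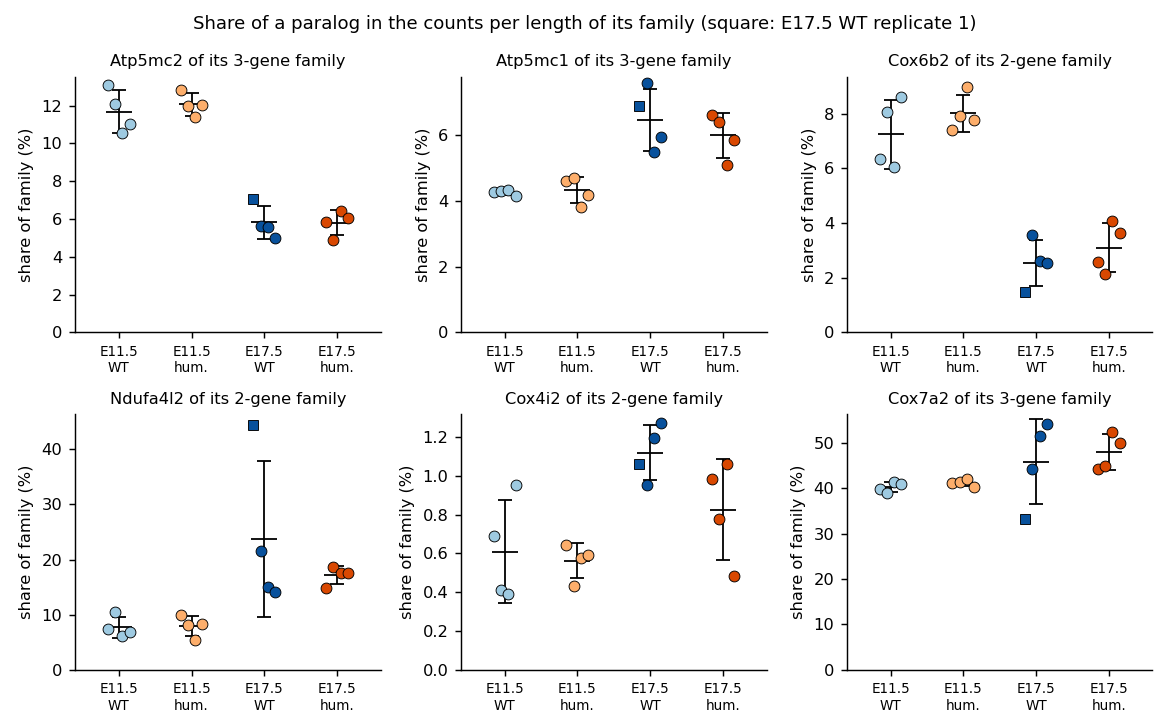
Share of each minor paralog in its family's summed TPM, in percent, by library at E11.5 and E17.5 in wild type and humanized samples, with replicate 1 of E17.5 wild type as a square. The shares of Atp5mc2 and Cox6b2 are lower and those of Atp5mc1 and Ndufa4l2 higher at E17.5 in both genotypes, with no overlap between stages.

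The 13 subunits encoded by mitochondrial DNA were all higher at E17.5 in both genotypes, with a median log2 fold change of 1.36 in wild type and 1.61 in humanized samples. The changes in wild type ran from mt-Nd3 at 0.58 ± 0.17 (edgeR adjusted p = 0.0128) to mt-Nd4 at 2.01 ± 0.21 (adjusted p = 1.85e-05). Their summed level was 10024, 8415, 13084 and 9451 CPM in E11.5 wild type and 18468, 25028, 29335 and 30521 CPM in E17.5 wild type. All E17.5 values were higher, the lowest being replicate 1.

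The ratio of mitochondrially encoded to nuclear-encoded CPM was 1.35 ± 0.392 in E11.5 wild type and 3.80 ± 1.28 in E17.5 wild type (SD, n = 4), with replicate 1 at 1.93 and the others at 4.04 to 4.72. In humanized samples it was 1.02 ± 0.251 and 4.72 ± 1.12. For complex I, with 7 mitochondrial genes, the ratio was 2.78 ± 0.761 and 7.45 ± 2.15 in wild type, and for complex IV, with 3, it was 2.85 ± 0.820 and 5.97 ± 2.17. ATP synthase, with mt-Atp6 and mt-Atp8, had the smallest ratio at 0.0211 ± 0.00571 and 0.0793 ± 0.0438. Replicate 1 of E17.5 wild type, at 0.0152, lay below every E11.5 wild type value, and the others stood at 0.0873 to 0.108. These ratios compare counts from poly(A)-selected RNA, and hence depend on how far mitochondrial transcripts carry poly(A) tails. They also depend on the counting, which left out reads of multiple origin or overlapping 2 genes. Copies of the mitochondrial genes elsewhere in the genome were not searched for, so the low ratio of ATP synthase is uncertain.

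Other genes of mitochondrial energy metabolism were counted by lists. Over all genes tested, 29.0% were higher and 26.7% lower in wild type, and 38.2% and 39.5% in humanized samples. The list counts are descriptions beside these shares. Of 43 assembly factors tested, 4 were higher and 8 lower in wild type, and 8 and 23 in humanized samples, with medians of -0.15 and -0.35. The largest was Ttc19, which maintains complex III, at 1.41 ± 0.21 and 1.79 ± 0.13. Of 13 electron carrier genes, 1 was higher and 3 lower in wild type and 1 and 10 in humanized samples. Etfb, a subunit of the electron transfer flavoprotein, was at -1.21 ± 0.45 and -1.91 ± 0.28, and Coq7, of ubiquinone synthesis, at -0.93 ± 0.17 and -1.05 ± 0.16.

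Among 14 regulators of mitochondrial biogenesis, 3 were higher and 6 lower in wild type, and 4 and 9 in humanized samples. The 2 with the largest changes were both higher: Ppargc1a, the coactivator PGC-1alpha, at 3.61 ± 0.37 and 4.30 ± 0.19, and its nuclear receptor partner Esrrg at 3.33 ± 0.38 and 3.94 ± 0.29. Of 17 genes of pyruvate dehydrogenase and the citric acid cycle, 1 was higher and 1 lower in wild type, and 5 and 10 in humanized samples, the GTP-forming succinyl-CoA ligase gene Suclg2 being lower at -1.56 ± 0.17 and -1.88 ± 0.14.

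Glycolysis had 5 of 19 genes higher and 7 lower in wild type, and 4 and 13 in humanized samples. Aldoc, the brain aldolase, was at 5.72 ± 0.29 and 5.11 ± 0.20, and the neuronal enolase gene Eno2 at 3.80 ± 0.29 in wild type. The summed level of glycolysis genes was 6373 CPM in replicate 1 of E17.5 wild type, against 2886 to 3103 CPM in the other 3 replicates and 4853 to 7235 CPM in E11.5 wild type.

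Markers of cell types changed with stage in both genotypes. The shares over all genes were again 29.0% higher and 26.7% lower in wild type, and 38.2% and 39.5% in humanized samples. Of 12 neuron markers, 10 were higher and 0 lower in both genotypes, and of 12 progenitor and cycling markers, 12 were lower in both. The summed neuron markers were at 1720 to 2692 CPM in the E11.5 libraries and 7615 to 9100 at E17.5, and the progenitor and cycling markers at 5146 to 5700 and 657 to 942. Erythroid markers summed to 1688 to 5412 CPM at E11.5 and 241 to 1020 CPM at E17.5, with 1 of 9 higher and 4 lower in wild type. Of 7 astrocyte markers, 4 were higher and 1 lower in wild type. The part of these changes in cell composition in the levels of the respiratory chain genes was not tested.

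For 5 members the counts on the sense strand alone exceeded the strand-blind counts by over 1.5 times, since reads that overlap a gene on the other strand are dropped when strand is ignored. The ratio was 5.71 for Cox5a, which overlaps the antisense transcript Gm26631, 3.42 for Ndufb6, which overlaps Smim27, 2.15 for Atp5mg, 1.92 for Atp5if1 and 1.56 for Atp5po. The levels of these genes are understated accordingly. From the sense strand, the stage difference of Cox5a was 0.10 ± 0.19 in wild type and -0.36 ± 0.10 in humanized samples, against -0.04 ± 0.20 and -0.48 ± 0.12 when strand was ignored.

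The promoters of these genes carried the marks of active chromatin at both stages. In wild type, 82 of 89 had an H3K4me3 peak within 1000 bp of the start in both E11.5 replicates (92.1%, against 63.5% of 21757 protein-coding promoters), and 80 had one in all 3 E17.5 replicates (89.9% against 63.6%). An H3K27ac peak was found at 77 promoters at E11.5 (86.5% against 47.3%) and at 80 at E17.5 (89.9% against 57.0%). The antibody lot used for H3K27ac also recognizes H2BK5ac. The polycomb mark H3K27me3 was present at 3 promoters at each stage (3.37%, against 19.4% and 19.1%), and CTCF at 39 at E17.5 (43.8% against 33.6%). These shares describe the set and carry no test, and expressed genes in general carry the active marks.

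Promoters without an H3K4me3 peak in every replicate belonged to genes at no more than 6.04 CPM on average in E17.5 wild type. At E11.5 they were those of Ndufb11b, Cox5b-ps, Cox6a2, Cox7b2, Cox8b, Cox8c and the second Atp5po gene, and at E17.5 also those of Cox7a1 and Ndufa4l2. The H3K4me3 peaks of Ndufa4l2 were weak, at 3.08 and 6.62 at E11.5 and 4.10 in E17.5 replicate 1. None of them reached within 500 bp of the start. Cox5b-ps, a near copy of Cox5b that is annotated as protein coding, had counts that may come from Cox5b. The fold enrichment of H3K4me3 over background at Cox4i2 was 3.43 and 4.43 in the E11.5 replicates and 3.40 to 4.94 in those of E17.5, and at Cox6b2 it was 13.9 and 18.4, then 13.5 to 24.2. Both lay below the medians over members with a peak, 57.8 at E11.5 and 59.6 for the later stage.

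H3K27me3 was found at Cox4i2 and Ndufa4l2 at both stages, at Atp5mc2 at E11.5 and at Cox6b2 at E17.5, all of them genes of paralog families. At Ndufa4l2 the E11.5 enrichments were 6.67 and 6.62, and those of E17.5 were 5.93, 5.399 and 5.38. H3K27ac had no peak there at E11.5 and enrichments of 48.3, 46.5 and 2.53 at E17.5, and CTCF had a peak in 2 of 3 lists (52.8 and 49.9). Of these H3K27ac and CTCF peaks, only the H3K27ac peak at 2.53 reached within 500 bp of the start. The H3K27me3 peaks of Ndufa4l2 all reached within that distance. H3K27me3 enrichment at Cox6b2 at E17.5 was 3.11, 3.00 and 2.90. At Atp5mc2 it was 2.77 and 3.12, and the peak did not reach within 500 bp of the start, where H3K4me3 stood at 62.0 and 43.0 and H3K27ac at 23.5 and 23.6 at E11.5.

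**Figure D5:**
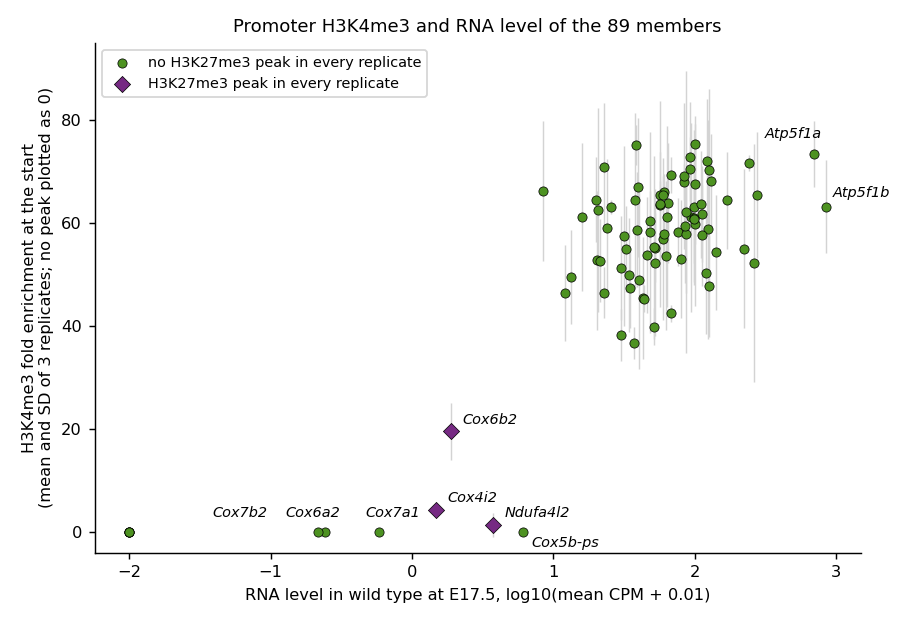
Mean H3K4me3 fold enrichment at the start of each of the 89 members in E17.5 wild type (vertical bars, SD of 3 replicates, a replicate without a peak entered as 0) against log10 of the mean RNA level in CPM plus 0.01, with diamonds for promoters that held H3K27me3 in every replicate. Apart from genes with no peak, the members lie above 30 in enrichment and at 8.44 CPM or more, except for the paralogs Cox4i2, Cox6b2 and Ndufa4l2, which held H3K27me3 and lie at 1.47, 1.89 and 3.75 CPM.

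Of the 89 promoters, 66 (74.2%) were CpG rich, with GC at or above 50% and an observed CpG frequency at or above 0.6 of that predicted from base composition around the start, against 48.5% of protein-coding promoters. A protein-coding gene started on the other strand within 1000 bp upstream of 11 of them (12.4% against 5.04%): Ndufa1, Ndufa11, Ndufa2, Ndufa5, Ndufa7, Ndufb9, Sdhd, Uqcr10, Uqcrh, Cox4i1 and Atp5mk. At Cox4i2 and Ndufa4l2 the CpG ratio was 0.478 and 0.159, and at Cox4i1 and Ndufa4 it was 1.05 and 0.674.

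RefSeq's promoter windows, 250 bases before to 50 after the start, were found for 68 of the 88 distinct symbols. Each was searched on both strands for 5 motifs. GCGCATGCG, the core of the NRF1 site, NRF1 being a regulator of respiratory genes, was in 8 (11.8%), against 2.61% of 17492 windows. AAGATGGCG, a YY1 motif, was in 7 (10.3% against 2.14%), of which 5 were complex I genes. CCGGAAGT, an ETS motif, was in 5 (7.35% against 5.69%). GGGCGG, the Sp motif, was in 27 (39.7% against 49.2%), and TATAAA in 7 (10.3% against 14.8%). A match of letters is a description and not a binding site.

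Among the upstream sequences, that of Cox6a1, the most highly expressed complex IV gene per length, holds the NRF1 letters on both strands in 1 run, as well as the Sp letters. Ndufb2 and Cox6b2, the highest riser of complex I and the minor paralog that fell, hold none of the 5. The sequences are written 5′ to 3′ on the gene's strand, in GRCm39, with the motif letters in capitals.
Cox6a1, chr5:115487041-115487267, minus strand: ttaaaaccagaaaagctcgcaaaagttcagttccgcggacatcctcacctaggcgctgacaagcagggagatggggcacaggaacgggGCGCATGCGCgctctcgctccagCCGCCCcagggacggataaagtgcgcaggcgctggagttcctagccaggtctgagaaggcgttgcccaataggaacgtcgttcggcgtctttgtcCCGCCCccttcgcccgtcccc
Ndufb2, chr6:39569249-39569489, plus strand: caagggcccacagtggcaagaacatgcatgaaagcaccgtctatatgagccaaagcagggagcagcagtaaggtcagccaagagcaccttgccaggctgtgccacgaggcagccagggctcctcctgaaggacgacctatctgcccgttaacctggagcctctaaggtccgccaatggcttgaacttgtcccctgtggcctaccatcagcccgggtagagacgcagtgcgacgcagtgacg
Cox6b2, chr7:4756094-4756227, minus strand: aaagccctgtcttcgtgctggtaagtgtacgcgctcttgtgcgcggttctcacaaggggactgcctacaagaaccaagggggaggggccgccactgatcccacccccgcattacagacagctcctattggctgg
At these starts in E17.5 wild type, H3K4me3 enrichment was 75.9, 71.8 and 63.7 at Cox6a1, 61.8, 63.1 and 64.5 at Ndufb2, and 24.2, 13.5 and 21.1 at Cox6b2. H3K27ac at Ndufb2 had enrichments of 12.9 and 11.7 in the E11.5 lists and of 53.6, 58.7 and 41.9 in the E17.5 lists. Enrichment was scaled within each list, and the median over members with an H3K27ac peak was 10.2 in the first and 23.0 in the second, so the values are given without a test.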

How the data were processed

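RNA from 16 diencephalon samples and wild type peak lists were used. Per the study's methods and the labels, the authors aligned poly(A) reads to mm39 with STAR 2.7.9a and deposited strand-blind and stranded read counts per gene, not normalized. The strand-blind counts were used. Reads of multiple origin or overlapping 2 genes were left out by the authors' counting, and 98.8% of the gene IDs matched the annotation. From Bowtie2 2.4.2 alignments the authors called peaks per replicate with MACS2 2.2.7.1, which wrote the deposited fold enrichment (a ratio over local background) and −log10 q-value of each peak. The H3K27me3 lists have the broad form, whose settings are not given in the sources used here.

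Counts were tested with edgeR 4.0.16 (quasi-likelihood, TMM, filterByExpr, R 4.3.3) over all genes passing the filter, with only the groups compared in each fit. Genes were called at an adjusted p under 0.05. Read counts of 16414369 to 24272569 per library set the precision, and errors cover counting and litter. Reads assigned to no gene stayed out of library sizes. TPM used summed exon lengths. A promoter carried a mark where a peak lay within 1000 bp of the start in every replicate. Scripts were tested on simulated data.

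The members, lists and tests were chosen with earlier results of these data known. Named were paralog families, the Sdh genes, in each complex up to 3 called members a direction in wild type and the highest and lowest per length, the 3 lowest p for genotype, members lacking H3K4me3, and members whose strand counts differed by over 1.5 times. Other members, such as those named from the fit without E17.5 wild type replicate 1, fell outside this rule and were chosen with their values known. The values of 1 member are not reported here. Same-numbered replicates deviated together in both genotypes at E17.5 (correlations 0.57, 0.64, 0.11 and 0.27), so these were also fitted as pairs. In the other comparisons at least 1 of 4 correlations was 0.1 or less. Alternatives were DESeq2 1.42.0, other scalings, no filter, the stranded counts, GC and length offsets, all 16 samples in a fit, a replicate block and each library left out.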

Additional observations from a re-analysis of the deposited data

Results flagged for a closer look

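For each group of 4 libraries and each named member or summed complex, a library was singled out where its gap to the nearest other exceeded Dixon's 95% critical value for 4 values, as a share of the group's range. Of 184 groups tested 13 did so, and chance gives about 1 in 20. In E17.5 wild type, replicate 1 was the outlying library for 6. It was high for Atp5f1a (1115 CPM, the others 502 to 603), Atp5f1b (1418, the others 606 to 686), Sdhb (185.4, the others 67.2 to 80.6), Sdhc (154.6, the others 65.9 to 79.1), Ndufa4l2 (5.742, the others 2.99 to 3.28) and the summed complex II genes (608.4, the others 346 to 378).

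In E11.5 humanized, replicate 4 was low for 6 members that are measured in 1 library and so not independent. These were Cox4i1 (219.1 CPM, the others 283 to 294), Sdhb (98.88, the others 121 to 124), Cox8a (41.91, the others 54.6 to 56.7), Ndufa13 (38.96, the others 44.2 to 45.1), Uqcr11 (24.19, the others 29.6 to 30.1) and Ndufa2 (22.14, the others 29.4 to 30.7). The remaining 1 was Atp5mg in replicate 3 of E17.5 humanized (38.46 CPM, the others 28.5 to 29.9). The cause of these deviations was not tested.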

How the results depend on the processing

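In wild type the number of members higher at E17.5 was 6 with DESeq2, 5 with no filter, 14 with GC offsets, 17 with length offsets and 8 with all 16 samples in the fit, against 3. The number lower was 7 with library totals only and 10 with GC offsets, against 4. With single libraries left out, 2 to 7 were higher and 3 to 24 lower, the extremes being 7 and 24 without E17.5 wild type replicate 1 and 7 higher without replicate 2. With a replicate block 2 were higher and 3 lower. In humanized samples 8 members were higher with GC offsets, 11 with length offsets and 3 with all 16 samples, against 5, and 3 to 7 when libraries were left out, the 3 without E11.5 humanized replicate 3. Library totals alone moved the median of all genes to -0.13 in both genotypes.

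Signs turned for some members near 0. Sdhb in wild type was -0.14 with library totals, -0.13 with the replicate block, -0.10 with length offsets, and -0.47 to 0.18 with libraries left out. Sdhd in wild type was 0.037 with length offsets. Ndufa8 in humanized samples was 0.013 with DESeq2, 0.012 with its size factors, 0.060 with GC offsets and -0.16 to 0.020 with libraries left out. With GC offsets, Ndufs1 was -0.27 and Uqcrb -0.73 in humanized samples. The cause was not tested. The Cox7a1 share difference, E17.5 minus E11.5, ran from -0.700 to 0.0611 percentage points in wild type and from -0.727 to 0.0733 in humanized samples with libraries left out. That of Cox4i2 in wild type was 0.524 points on the stranded counts (exact permutation p = 0.0571).

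For the genotype comparisons the replicate block gave 0 calls among the members at either stage, and 4 members rather than 1 had an unadjusted p under 0.05 at E17.5. With peaks at a −log10 q of at least 5, 1 rather than 3 promoters held H3K27me3 at E11.5. Depth limited Cox4i2, Cox7a1 and the muscle isoforms, with at most 47 counts.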
